A study of Mus musculus with 2 samples.

Results

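In all, 10 genes of scavenger-type resident macrophages were followed in a pair of single-cell RNA libraries: Fcrls, Folr2, Cbr2, Stab1, Mrc1, Cd163, F13a1, Pf4, Gas6 and Maf. These 10 of 55357 features were picked by symbol, with earlier results of the same libraries known, so their levels and differences are given as a description and carry no test. They were described in cells gated as macrophages, which had at least 20 UMIs (unique molecular identifiers, each standing for 1 captured transcript) of C1qa, C1qb and C1qc together per 10000 UMIs. The gate held 3187 of 5237 kept cells (60.9%, 95% binomial interval 59.5 to 62.2%) in the library labelled KO and 5308 of 8360 (63.5%, 62.5 to 64.5%) in the WT library.

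Both libraries came from mouse and carry colon as their tissue label, 1 with a Runx3 knockout genotype and 1 with the wild-type genotype. The series' design text speaks of Runx3-/- mice and tumour models, in a project on Runx3 and natural killer cell infiltration in colorectal cancer. The sources used here do not give the allele, strain, age, sex or number of the animals, or which tumour model, if any, stands behind each library. The deposited values are raw UMI counts, and levels are UMIs per 1000000 UMIs of the cells summed (CPM), with 95% intervals that cover counting error only. With 1 library per group there is no replicate and no test, and genotype, animal and preparation cannot be told apart.

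Macrophages that live long-term in a tissue clear dying cells, proteins and sugars through scavenger and lectin receptors, and they release factors that bind and clear. Several of the genes here mark such cells in gut, heart and other mouse tissues. C1qa, C1qb and C1qc encode the chains of the complement component C1q, which in mouse tissue comes mainly from macrophages.

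The members lie on 9 chromosomes (mm10, positions of GENCODE M21, all protein-coding). Fcrls (ENSMUSG00000015852) spans chromosome 3, 87250758 to 87263738, Folr2 (ENSMUSG00000032725) chromosome 7, 101839988 to 101857194, and Cbr2 (ENSMUSG00000025150) chromosome 11, 120729489 to 120732114, all on the minus strand. Stab1 (ENSMUSG00000042286) spans chromosome 14, 31139013 to 31168641 (minus), Mrc1 (ENSMUSG00000026712) chromosome 2, 14229392 to 14332057 (plus), and Cd163 (ENSMUSG00000008845) chromosome 6, 124304656 to 124330527 (plus). F13a1 (ENSMUSG00000039109) spans chromosome 13, 36867178 to 37050244 (minus), and Pf4 (ENSMUSG00000029373) chromosome 5, 90772435 to 90773383 (plus). Gas6 (ENSMUSG00000031451) and Maf (ENSMUSG00000055435) are both on the minus strand of chromosome 8, at 13465374 to 13494490 and at 115682942 to 115707794.

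The 250 bases before the start are shown for Fcrls and Stab1, the pair with the highest correlation per cell in KO, for Pf4, which was also higher in male-type KO cells, and for Mrc1, whose level differed least between the libraries (RefSeq, build GRCm38.p6). Capitals mark TGCTGA, the core of the element that large MAF proteins bind, and GAGGAA, the core bound by the macrophage factor PU.1, on either strand.
Fcrls, chr3:87263525-87263774, minus strand: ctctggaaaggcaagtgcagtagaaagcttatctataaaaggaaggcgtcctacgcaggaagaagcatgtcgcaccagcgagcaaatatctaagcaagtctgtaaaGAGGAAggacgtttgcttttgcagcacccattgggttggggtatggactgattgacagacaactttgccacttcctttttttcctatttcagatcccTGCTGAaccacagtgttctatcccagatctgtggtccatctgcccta
Stab1, chr14:31168642-31168891, minus strand: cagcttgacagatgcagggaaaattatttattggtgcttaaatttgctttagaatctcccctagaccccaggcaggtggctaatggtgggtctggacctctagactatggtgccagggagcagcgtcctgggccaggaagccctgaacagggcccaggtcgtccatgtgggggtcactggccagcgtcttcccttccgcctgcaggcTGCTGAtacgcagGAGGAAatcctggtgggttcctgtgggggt
Pf4, chr5:90772185-90772434, plus strand: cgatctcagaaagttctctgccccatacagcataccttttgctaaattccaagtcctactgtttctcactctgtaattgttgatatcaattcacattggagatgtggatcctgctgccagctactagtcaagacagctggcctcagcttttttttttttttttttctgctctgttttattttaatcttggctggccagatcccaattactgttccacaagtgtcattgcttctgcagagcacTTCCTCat
Mrc1, chr2:14229164-14229413, plus strand: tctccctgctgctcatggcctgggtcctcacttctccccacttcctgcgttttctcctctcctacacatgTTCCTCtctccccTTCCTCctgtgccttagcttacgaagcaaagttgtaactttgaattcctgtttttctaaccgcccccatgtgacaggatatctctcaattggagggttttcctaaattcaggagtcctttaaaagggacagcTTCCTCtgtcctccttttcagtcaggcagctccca
RefSeq gave 11 starts for 9 of the 10 members. TGCTGA stood in 4 of the 11 windows (Fcrls, Stab1 and both starts of Folr2), against 16.1% of 32851 mouse promoter windows of the same length. GAGGAA stood in 6 (Fcrls, Cbr2, Stab1, Mrc1, F13a1 and Pf4), against 23.3%. Fcrls and Stab1 were the members with both, and the motifs did not overlap. The starts of RefSeq and GENCODE can differ. Most of the Fcrls window, with both of its marked motifs, lies inside the GENCODE span given above. The end of the Mrc1 window also reaches into its span. A match describes letters only, and no match says only that those letters are not in the window.

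The libraries held 6573 (KO) and 8800 (WT) barcodes, with 62465176 and 85367638 UMIs, and 17 barcodes occurred in both. Gated cells had a median of 11017 UMIs in the library labelled KO and 9629 in WT, against 6705 and 5344 outside the gate. Runx3 itself was read at 176 CPM in gated cells labelled KO (172 to 180.2) and 229.6 CPM in WT (225.6 to 233.7), so transcripts of the gene were present in the library labelled KO. By transcripts of Xist and 4 Y-linked genes, gated cells of the library labelled KO were 1785 female-type, 779 male-type, 326 with both and 297 with neither. Gated WT cells were 4444 male-type, 0 female-type, 2 with both and 862 with neither. The female-type and male-type cells of the library labelled KO also stood apart in the lysozyme gene Lyz2, at 6906 CPM in female-type and 138 CPM in male-type cells, against 8883 CPM in male-type WT cells. Sex, Lyz2 level, animal and genotype cannot be told apart, and the main comparisons are given with and without the female-type cells.

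The gate selected cells with other macrophage markers. The colony-stimulating factor receptor gene Csf1r was found in 93.3% of gated cells labelled KO and 93.0% in WT, Apoe in 98.2% and 95.3%, Cd68 in 84.7% and 85.7%, and Adgre1 (F4/80) in 77.7% and 69.9%. The gate genes stood close together in the libraries, with KO over WT folds of 0.938 for C1qa, 0.937 for C1qb and 0.978 for C1qc. Some gated cells also passed the marker gate of another type, 26.8% in the library labelled KO and 29.1% in WT, most often that of monocytes (585 and 994 cells) or T cells (198 and 452). Just inside the gate (20 to 25 per 10000; 98 and 135 cells) Fcrls had 76.1 CPM in KO and 18.7 in WT, and just outside (15 to 20; 124 and 162 cells) 39.3 and 17.1. Pf4 went the other way across the edge in the library labelled KO, with 184 CPM just inside and 662 just outside, and had 84.6 and 63.6 CPM in WT.

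Among the receptors read in more than a few cells, Fcrls and Folr2 differed most between the libraries. Fcrls, an Fc receptor-like scavenger receptor best known from mouse microglia, had 219.8 CPM in gated cells labelled KO (8319 UMIs) and 60.9 CPM in WT (3354 UMIs), a fold of 3.61 (3.46 to 3.76). Folr2, the folate receptor beta, had 27.4 and 9.27 CPM, a fold of 2.95 (2.65 to 3.29). A UMI of Fcrls was found in 51.9% of gated cells labelled KO and 25.8% in WT, and one of Folr2 in 15.8% and 5.65%. In T cell-gated cells, which should lack both and had median depths of 4226 and 3665 UMIs, a UMI of Fcrls was found in 4.46% of cells in KO and 0.586% in WT. Folr2 gave 3 UMIs in 314 of them in KO and 0 UMIs in 683 in WT, which allows a level of up to 0.977 CPM (3 counts). Both receptors differed between the libraries in the share of gated cells as well as in the level.

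The other receptors ran from a moderate difference to almost none. Stab1, encoding stabilin 1, which takes up modified lipoproteins and matrix fragments, had 219.9 CPM in KO and 121 CPM in WT, a fold of 1.82 (1.76 to 1.88). Mrc1, the mannose receptor CD206, was at 756 and 725 CPM, a fold of 1.04 (1.03 to 1.06), and was found in 87.9% and 86.2% of gated cells. Cd163, the receptor for haemoglobin bound to haptoglobin, was close to absent in both, with 82 UMIs in 61 of 3187 cells and 21 UMIs in 17 of 5308 cells. Its fold of 5.68 has an interval of 3.48 to 9.66 and rests on those counts.

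The enzyme and the secreted factors were all higher in the library labelled KO. Cbr2, a carbonyl reductase, had 54.2 CPM in KO and 24.3 CPM in WT, a fold of 2.23 (2.08 to 2.39). Gas6, the bridging ligand between phosphatidylserine on dying cells and the TAM receptors, had 30.3 and 14.6 CPM (2.07, 1.89 to 2.27). Pf4, a chemokine best known from platelet granules, had 718 and 381 CPM (1.89, 1.85 to 1.92), and F13a1, the A subunit of coagulation factor XIII, 203 and 126 CPM (1.61, 1.56 to 1.66). Maf, a large MAF transcription factor of macrophages and T cells, had 301 and 158 CPM (1.90, 1.85 to 1.96). Outside the C1q gate, 0 cells passed the marker gate of megakaryocytes or platelets alone. Cells that passed it together with the C1q gate or another marker gate were not counted. Of 3 platelet genes, picked after their values were seen, Ppbp had 248 UMIs in gated cells labelled KO and 70 in WT (fold 5.15; 6.89 with male-type cells alone), Itga2b 21 and 26 UMIs, and Gp9 no UMI in any group of gated cells split by number of members detected. The part of platelet RNA in the Pf4 level was not tested.

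On the scale used for all genes, log2 after adding 5 CPM to both libraries, the 10 members ran from 0.059 (Mrc1) to 1.77 (Fcrls) with a median of 0.88, against a median of -0.0064 over 14574 genes with at least 50 UMIs. All 10 were higher in the library labelled KO, and 3 (Fcrls, Folr2 and Cbr2) were at least 2-fold higher, against 0.288% of all genes at least 2-fold higher and 48% higher by any amount. None was at least 2-fold lower, as 0.0892% of all genes were. The members were chosen with these values known, so nothing is read from that contrast. From the highest ratio, Fcrls was 9th of 14574, Folr2 27th, Cbr2 42nd, Pf4 52nd, Maf 53rd, Gas6 63rd and Stab1 65th. F13a1 (125th), Cd163 (355th) and Mrc1 (4675th) followed.

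**Figure D1:**
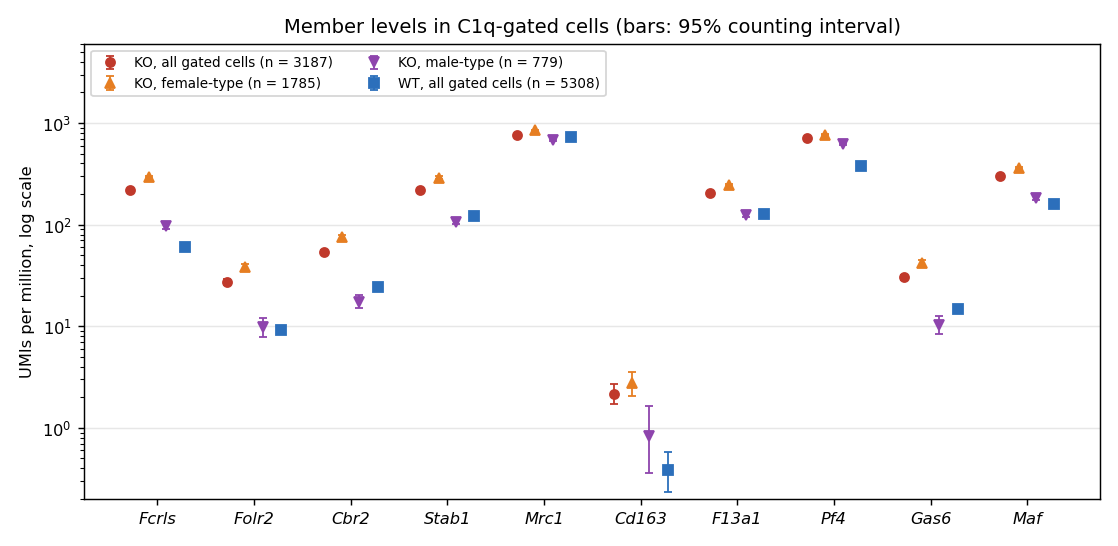
Levels of the 10 members in C1q-gated cells, in CPM on a log axis. For each gene the points are, from left, all KO cells, female-type KO cells, male-type KO cells and all WT cells, and bars are 95% counting intervals. For Fcrls they stand at 219.8, 292, 96.6 and 60.9, and for Stab1 the male-type KO cells (107) sit below WT (121).

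Within the library labelled KO, the members were higher in female-type than in male-type cells. Female-type cells labelled KO had 292 CPM of Fcrls, 38.5 of Folr2, 74.9 of Cbr2, 290.5 of Stab1 and 41.8 of Gas6, against 96.6, 9.75, 17.5, 107 and 10.4 CPM in male-type cells of the same library. The folds of female-type over male-type cells were 3.02 for Fcrls, 3.95 for Folr2, 4.27 for Cbr2, 2.72 for Stab1 and 4.02 for Gas6. They were 1.97 for F13a1, 1.96 for Maf, 1.25 for Mrc1 and 1.24 for Pf4, with 3.28 for Cd163 from 56 and 8 UMIs. On the log2 scale with 5 CPM added, all 10 were higher in female-type cells and 5 at least 2-fold, where 66.6% and 0.258% of all genes were, and none was at least 2-fold lower (0.0831%). These folds set cells of 1 library against each other, and cells are not replicates.

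With male-type cells alone in both libraries, the median log2 ratio of the members was 0.053, against -0.060 over all genes, and 6 were higher and 4 lower in KO, against 37.1% of all genes higher by any amount. On that scale none was at least 2-fold higher (0.216% of all genes were) or lower (0.722%), and 9 of the 10 passed 50 UMIs. Fcrls remained 1.58-fold higher (1.47 to 1.71; 96.6 CPM in KO, 61.0 in WT), Pf4 1.66-fold (1.61 to 1.71; 618 and 372 CPM) and Maf 1.19-fold (1.13 to 1.25; 184 and 155 CPM). Cbr2 was lower in KO (0.713, 0.603 to 0.838), as were Gas6 (0.721, 0.579 to 0.891), Stab1 (0.903, 0.844 to 0.965) and Mrc1 (0.941, 0.916 to 0.966). Folr2 (1.08, 0.857 to 1.36) and F13a1 (1.02, 0.960 to 1.09) had intervals that include equality, and so had Cd163 with 8 and 19 UMIs. Female-type KO cells against all WT cells gave folds of 4.79 for Fcrls, 4.16 for Folr2 and 1.17 for Mrc1, and a median log2 of 1.20. On the same log2 scale all 10 were then higher (51.1% of all genes), 7 at least 2-fold (0.369%) and none at least 2-fold lower (0.249%).

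Cells were also described by the number of members they held. Such shares rise with the detection of each single member. No share expected from the single detection rates was worked out, so they do not show whether members were found together. With every gated cell thinned to 3000 UMIs, which left 2839 cells labelled KO and 4826 WT cells and left out 348 and 482 shallower ones, at least 5 members were detected in 22.6% of KO cells (21.1 to 24.2%) and 7.98% of WT cells (7.23 to 8.78%). At least 3 were detected in 48.7% and 30.8%. In the library labelled KO, at least 5 members were detected in 29.9% of 1620 female-type cells (27.7 to 32.2%) and 8.55% of 737 male-type cells (6.63 to 10.8%), against 7.65% of 4198 male-type WT cells (6.86 to 8.49%). The male-type shares had overlapping intervals between libraries, and the female-type share stood above both.

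**Figure D2:**
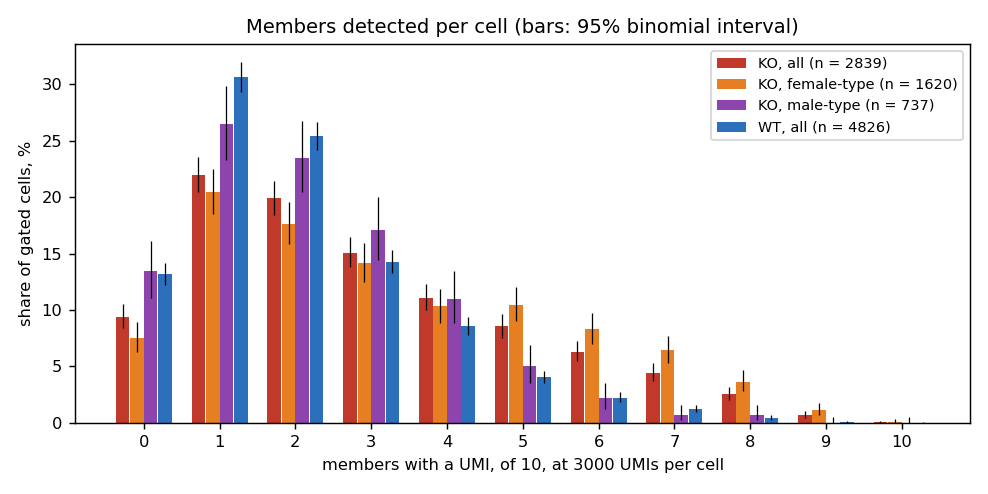
Share of C1q-gated cells, in percent, by the number of the 10 members with a UMI when each cell is thinned to 3000 UMIs. Bars from left are all KO, female-type KO, male-type KO and all WT cells, with 95% binomial intervals. KO female-type cells hold the largest shares from 5 members upward, and male-type KO cells lie near WT there.

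The same thinning gives the detection of each member on its own. Mrc1 was detected in 71.8% of thinned cells labelled KO and 68.3% in WT, Pf4 in 53.9% and 38.4%, Maf in 43.2% and 29.8%, and Stab1 in 34.6% and 25.5%. Fcrls followed with 33.1% and 13.8%, and F13a1 with 26.5% and 16.6%. Cbr2 (10.8% and 5.72%), Gas6 (7.71% and 3.81%), Folr2 (7.64% and 2.53%) and Cd163 (0.810% and 0.124%) were found in few cells at that depth.

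Pairs of members were positively correlated over gated cells. The median Pearson r of log-scaled counts over the 45 pairs was 0.38 in 3187 cells labelled KO and 0.28 in 5308 WT cells. Single pairs ran from 0.10 to 0.57 in KO and from -0.0057 to 0.44 in WT. The cells share a library and differ in depth, so the values are a description. In the library labelled KO the highest pairs were Fcrls with Stab1 (0.57), Stab1 with Maf (0.53), Pf4 with Maf (0.52) and Fcrls with Maf (0.52). In WT they were F13a1 with Pf4 (0.44) and Pf4 with Maf (0.44), and Fcrls with Stab1 had 0.30. Without the 9 Cd163 pairs, whose counts are too sparse to read, the lowest pair was Folr2 with Mrc1 in both libraries (0.23 and 0.081).

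By sex type the median r was 0.41 in female-type and 0.22 in male-type cells labelled KO, against 0.27 in male-type WT cells. Thinned to 3000 UMIs it was 0.27 in KO and 0.16 in WT. In those thinned cells, Stab1 was detected in 57.9% of Fcrls-positive and 23.1% of Fcrls-negative cells labelled KO, and in 41.6% and 23.0% in WT. Pf4 was detected in 79.8% of F13a1-positive and 44.5% of F13a1-negative cells in KO, and in 66.3% and 32.9% in WT. Folr2 and Cbr2, both sparse, also met in the same cells, with Cbr2 in 36.9% of Folr2-positive and 8.70% of Folr2-negative cells in KO, and in 32.0% and 5.04% in WT.

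**Figure D3:**
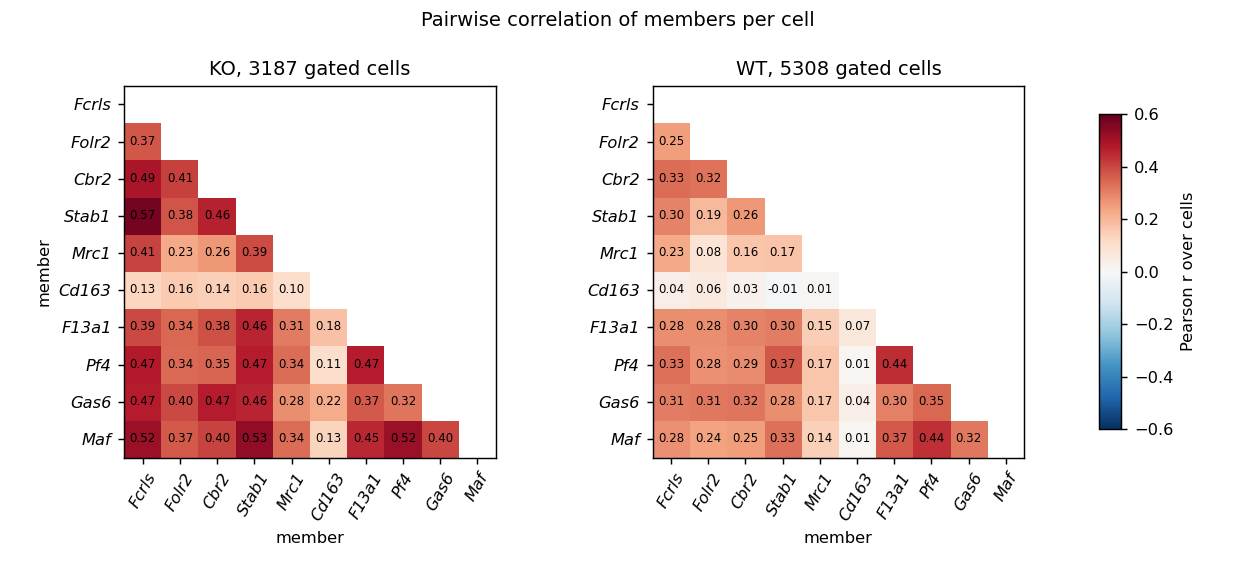
Pearson r over C1q-gated cells for each of the 45 pairs of members, KO on the left (3187 cells) and WT on the right (5308 cells). Values run to 0.57 (Fcrls with Stab1) in KO and 0.44 (F13a1 with Pf4) in WT, and the Cd163 row is near 0 in WT.

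Outside the members, the gene most like their mean over gated cells was Selenop, which encodes the selenium carrier selenoprotein P, with r of 0.58 in KO and 0.44 in WT. The others among the 10 most alike, taken by the lower r of the libraries among 8629 genes, were Ms4a7 (0.45 and 0.44), Cd93 (0.54 and 0.42), the lysosomal protease gene Ctsb (0.48 and 0.42), Rnase4 (0.49 and 0.39) and Igfbp4 (0.48 and 0.39). Itsn1, an endocytic scaffold (0.53 and 0.38), Hdac9 (0.48 and 0.38), Slc9a9, an endosomal sodium-proton exchanger (0.53 and 0.37), and Adgre1 (0.49 and 0.36) complete them. All 8629 genes had a median r of 0.033 in KO and 0.0079 in WT. The C1q genes themselves stood lower, at 0.22 to 0.29 in KO and 0.22 to 0.23 in WT.

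The genes most opposite to the members were those of MHC class II antigen presentation. H2-Ab1 had r of -0.62 in KO and -0.41 in WT, Cd74, the invariant chain, -0.64 and -0.38, H2-Eb1 -0.61 and -0.37, and H2-Aa -0.61 and -0.36. Malt1, a paracaspase of NF-kB signalling, was next (-0.46 and -0.33). All 7 genes of the MHC class II list were below 0 in both libraries, with medians of -0.61 and -0.36. These r values, and those of the genes most alike, were not split by sex type.

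The cells were ordered by the number of members detected (0, 1 to 2, 3 to 4, 5 or more). Along that order they ran from high MHC class II to high levels of some resident-type genes. The resident-type genes named here were picked after their values were seen. Cd74 had 14600, 13870, 10351 and 4243 CPM along that order in KO, and 15973, 15951, 13381 and 9691 CPM in WT. Selenop had 111, 191, 355 and 846 CPM in KO and 118, 185, 347 and 685 CPM in WT. Adgre1 (113 to 498 CPM in KO, 118 to 421 CPM in WT), the TAM receptor gene Mertk (76.5 to 258 and 69.5 to 197), Cx3cr1 (222 to 735 and 178 to 446), Igf1 (7.39 to 84.5 and 8.35 to 130.2) and Apoe (4059 to 10818 and 3086 to 11590) were lowest at 0 members and highest at 5 or more. Median depth moved with this order, at 13074, 12420, 11691 and 10413 UMIs in KO and 10356, 10362, 10067 and 8705 UMIs in WT, and its part in the result was not tested. Sex type moved with it too in KO, where 29.9% of female-type and 8.55% of male-type cells had at least 5 members. All 7 MHC class II genes were lower in female-type than in male-type KO cells (median log2 -0.58). Over all genes, 66.6% were higher in female-type cells. The order was not split by sex type. Of 19 other resident-type genes measured, 17 in KO and 18 in WT had r above 0 with the members' mean (medians 0.29 and 0.16). Clec4n was below 0 (-0.18 and -0.13), and Ccl24 was near 0 (0.024 and 0.0017).

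Inflammatory genes and chemokine genes went in several directions along the same order. Il1b, encoding interleukin 1 beta, had 2941 CPM at 0 members and 895 CPM at 5 or more in KO, and 1935 and 769 CPM in WT. The chemokine genes Ccl7 (303 and 1852 CPM in KO, 149 and 1486 CPM in WT) and Ccl8 (74.1 and 335 CPM, 33.7 and 647 CPM) were higher with more members. Cd9 (559 and 251 CPM in KO, 463 and 222 CPM in WT) and the TAM receptor gene Axl (291 and 141 CPM, 298 and 169 CPM) were lower. Genes that mark other resident macrophages stayed near 0 even in cells with 5 or more members: Lyve1 had 3.04 CPM in KO and 2.43 CPM in WT, Timd4 0.397 and 0 CPM, and Vsig4 0.264 and 0.270 CPM.

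**Figure D4:**
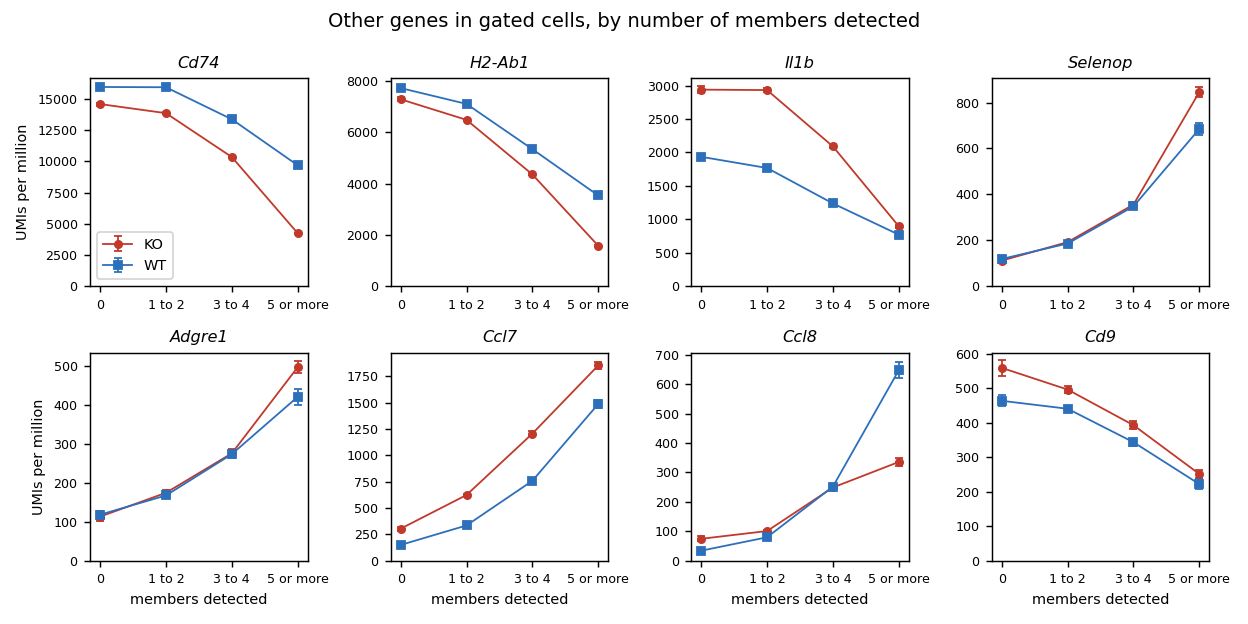
Levels, in CPM, of 8 other genes in C1q-gated cells grouped by the number of members detected at 3000 UMIs per cell (circles KO, squares WT, bars 95% counting intervals). Cd74, H2-Ab1, Il1b and Cd9 are lowest at 5 or more members, and Selenop, Adgre1, Ccl7 and Ccl8 highest there, in both libraries. Sex types are pooled.

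Between the libraries, lists related to the members gave the following in gated cells, beside 48% of all genes higher in KO. Of 22 other resident-type genes, 17 were higher in KO (median log2 0.30), from Ccl7 (990 CPM in KO, 482 in WT) to the haem-degrading enzyme gene Hmox1 (92.3 and 122). With male-type cells alone it was 13 of 21 (0.062, against 37.1% of all genes), and Selenop (222 CPM in KO, 246 in WT) and Igf1 (15.3 and 32.0) were lower in KO. Of 18 other scavenger and uptake receptors measured, 11 were higher (0.057), from Olr1, a receptor for oxidised lipoprotein (KO over WT fold 2.02), to the lectin gene Mgl2 (397 CPM in KO, 574 in WT). With male-type cells alone 7 of 17 were higher and the median was below 0 (-0.063). Of 12 genes of the GAS6 and TAM receptor axis, 8 were higher (0.20), with Cd93 at 101 and 56.7 CPM, Mertk at 146 and 125 CPM, and Axl at 217 and 253 CPM. With male-type cells alone 8 of 11 were higher (0.18), and Mertk was lower in KO (100.5 and 123 CPM).

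The lists named for the other members' roles gave medians on either side of 0, beside 48% of all genes higher in KO. Of 21 MAF family and macrophage transcription factors, 14 were higher (0.078), with Cebpb at 137 CPM in KO and 67.7 in WT, and Irf4 at 26.2 and 39.5. Of 13 folate and carbonyl genes measured, 6 were higher and 7 lower (median -0.0015), and of 14 coagulation and platelet-type genes 9 were higher (0.31). In that list the plasminogen activator gene Plau was higher (102 CPM in KO, 44.8 in WT) and F7, encoding coagulation factor VII, lower (19.9 and 34.5). Of 7 MHC class II genes, 0 were higher in KO (median -0.40), a median that was -0.049 with male-type cells alone. With those cells, 37.1% of all genes were higher in KO. So were 14 of 21 transcription factors (0.13), 4 of 13 folate and carbonyl genes (-0.10) and 9 of 14 coagulation genes (0.18).

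The further lists complete the picture of the gated cells, again beside 48% of all genes higher in KO. Of 20 inflammatory and Arg1-type genes, 18 were higher in KO (median 0.61), with Cxcl3 at 103 CPM in KO and 27.5 CPM in WT, and 20 of 20 with male-type cells alone (0.76). Of 12 interferon-stimulated genes, 3 were higher (-0.31), with Irf7 at 26.1 and 53.3 CPM, and of 16 monocyte genes 8 were higher (0.054). Of 12 lipid-associated genes, 8 were higher (0.096), from Spp1 (712 and 492 CPM) to Lpl (log2 ratio -0.64). With male-type cells alone, beside 37.1% of all genes higher, 4 of 12 lipid-associated genes (-0.080), 6 of 12 interferon-stimulated genes (-0.013) and 6 of 16 monocyte genes (-0.052) were higher in KO. The interferon-stimulated genes Gbp5 (fold 1.69), Cxcl9 (1.62), Cxcl10 (1.37) and Gbp2 (1.26) were among those higher there, named after their values were seen. The other 6 of that list were lower, with Ifit3 lowest. Of the list, 0 genes were at least 2-fold higher and 1 at least 2-fold lower (0.216% and 0.722% of all genes).

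Within and beyond the gate, most members followed the C1q level. Fcrls had 17.2 CPM in cells labelled KO with no C1q UMI, 89.7 at 20 to 50 per 10000 and 339.6 at 100 and above, and 2.45, 26.6 and 84.1 CPM in WT. Gas6 had 0.555, 10.3 and 45.5 CPM in KO and 0.818, 4.16 and 23.2 CPM in WT. F13a1 had 228 CPM in KO cells with no C1q UMI and 229 CPM at 100 and above (60.5 and 145 in WT). Maf had 163 CPM with no C1q UMI and 406 CPM at 100 and above in KO, and 115 and 199.6 CPM in WT. F13a1 and Maf were thus also read where C1q was absent. So were Pf4 (137 CPM in KO and 56.1 in WT), Mrc1 (70.5 and 76.0) and Stab1 (37.2 and 19.6).

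By marker gate, the C1q-gated cells held 96.7% of all Fcrls UMIs in KO and 96.4% in WT, and between 94.9% and 98.3% of those of Folr2, Cbr2 and Gas6. They held 92.5% and 93.6% of Stab1, 90.4% and 94.4% of Mrc1, 87.0% and 94.7% of Pf4, 82.2% and 79.8% of Maf, and 74.0% and 84.6% of F13a1. The background for these shares is high. Over all genes, gated cells held 37845316 of 55820103 UMIs in KO and 55035151 of 76339766 in WT. Compared over 8 marker-gated classes that reached 20 cells in KO and in WT, 8 members were highest in C1q-gated cells in KO and 7 in WT, where Cd163 gave 21 UMIs in C1q-gated cells and at most 2 in any other class. Next after C1q-gated cells, Fcrls stood at 17.8 CPM in monocyte-gated cells labelled KO and 7.36 CPM in WT. Thinned to 1000 UMIs, a UMI of Fcrls was found in 17.6% of C1q-gated and 1.94% of T cell-gated cells in KO (median depths before thinning 11017 and 4226 UMIs), and in 5.57% and 0.149% in WT (9629 and 3665 UMIs).

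F13a1 and Maf were the exceptions. F13a1 was highest in monocyte-gated cells, at 409 CPM in KO (389.7 to 429.7) and 241 CPM in WT (224 to 258), against 203 and 126 CPM in C1q-gated cells. Its UMIs per 100 C1q UMIs there were 93.1 and 49.6, against 2.33 and 1.37 in C1q-gated cells. Maf was highest in T cell-gated cells, at 541 CPM in KO (507 to 578) and 336 CPM in WT (316 to 357), and was found in 35.8% and 22.8% of them when thinned to 1000 UMIs. Maf is a known factor of several T cell subsets, and in WT its highest cluster was led by Foxp3, the regulatory T cell factor (641 CPM). Of the WT cells in that cluster, 36.6% also passed the C1q gate, and Mrc1 stood at 360 CPM there. In KO the Foxp3-led cluster had 682 CPM of Maf, below the 769 CPM of a cluster led by Mir99ahg and Igf1.

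Mrc1 and Pf4 were also read outside the gate. Mrc1 had 278 CPM in KO and 332 CPM in WT in monocyte-gated cells, and 115 and 48.7 CPM in dendritic cell-gated cells. Pf4 had 275 and 98.1 CPM in monocyte-gated cells, 536 and 28.3 CPM in cells of the osteoclast gate (43 and 36 cells) and 229 and 21.2 CPM in T cell-gated cells. In the library labelled KO, Pf4 was also at 601 CPM in 86 neutrophil-gated cells and 699 CPM in 388 cells that passed no gate. In T cell-gated cells labelled KO there were 52.7 Pf4 UMIs per 100 C1q UMIs, against 8.25 in C1q-gated cells, and in WT 5.27 against 4.14. The part of free RNA in these reads was not tested.

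**Figure D5:**
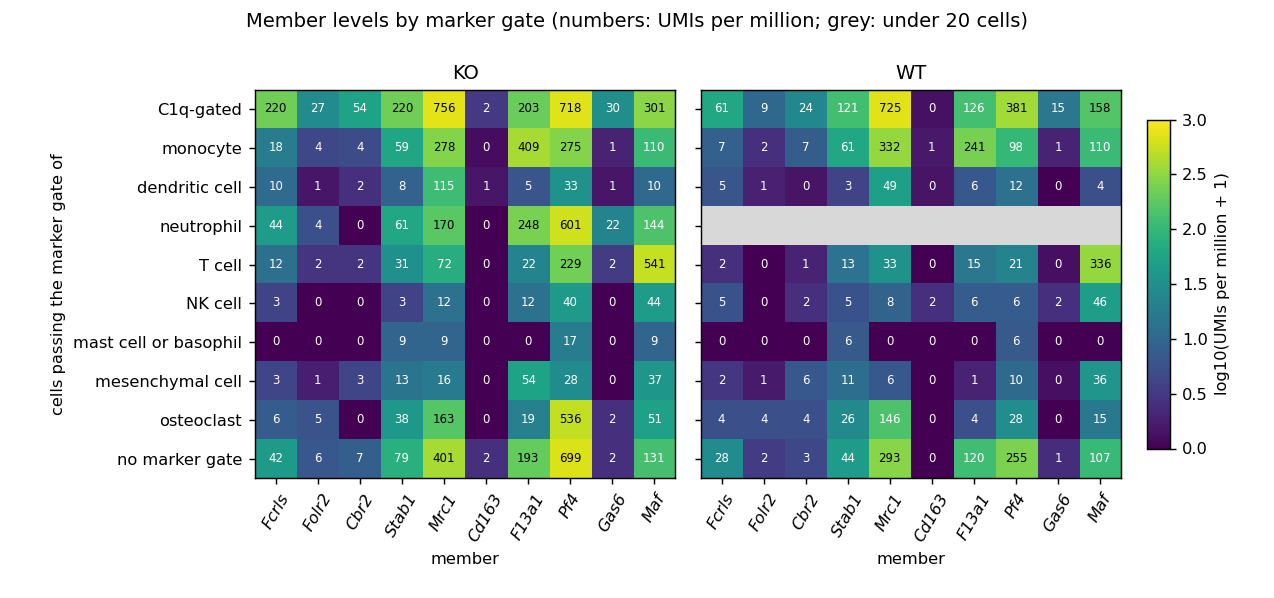
Levels of the 10 members in cells of each marker gate, KO on the left and WT on the right. Colour is log10 of CPM plus 1, printed numbers are CPM, and grey marks classes under 20 cells. Most members are highest in the top row of C1q-gated cells, with F13a1 highest in monocyte-gated cells (409 and 241) and Maf in T cell-gated cells (541 and 336).

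When all kept cells were clustered without the members and the C1q genes, 1 cluster had the highest level of 7 members in KO and 8 in WT, of 27 clusters with at least 20 cells in each library. The exceptions were Cd163 in both, F13a1 and Pf4 in KO and Maf in WT. That cluster, led by Mir99ahg, Igf1, Rapgef5 and Hpgds, held 20.2% of gated cells labelled KO (644 cells, 18.8 to 21.6%) and 6.41% of gated WT cells (340 cells, 5.76 to 7.10%). Its share was 28.1% of female-type and 9.76% of male-type gated cells labelled KO, against 6.17% of male-type WT cells. It was picked as the cluster with the highest summed level of the 10 members over both libraries. Genes correlated with the members also shaped the clusters, so the share is a description. Of all UMIs of the library, the cluster held 46.9% of Fcrls in KO and 23.2% in WT, but 26.2% and 8.32% of Mrc1 and 30.5% and 16.1% of Pf4. Its share of kept cells was 12.4% in KO and 4.08% in WT. In WT another cluster, of 801 cells (9.58% of kept cells), held more of the Mrc1 (18.5%) and Pf4 (23.6%) UMIs.

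Because the cluster was picked by the members' summed level, higher levels inside it were largely set by that choice. Inside the cluster 9 members stood above other gated cells of the same library in KO and WT, and Cd163 did in KO. In WT Cd163 had 0.689 CPM inside (0.0834 to 2.49) and 0.364 CPM outside (0.219 to 0.569). Fcrls had 625 CPM in KO and 278 CPM in WT, Stab1 641 and 407, Maf 766 and 514, Pf4 1451 and 1225, F13a1 486 and 483, Gas6 106 and 93.6, and Mrc1 1282 and 1211. In gated cells outside it, Fcrls had 137 CPM in KO and 48.8 in WT, Stab1 134 and 105, Maf 206 and 138, Pf4 568 and 333, and Gas6 14.8 and 10.2. Mrc1 was lower in KO there (649 and 698 CPM). Male-type cells in the cluster had 252 CPM of F13a1 in KO (217 to 291) and 441 CPM in WT (415 to 468), and 56.2 and 92.5 CPM of Gas6, while female-type KO cells had 539 CPM of F13a1 and 118 CPM of Gas6. The cluster held 40.6% of gated F13a1 UMIs and 59.5% of gated Gas6 UMIs in KO, against 20.2% and 33.8% in WT.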

How the data were processed

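The deposited files hold raw counts of UMIs per gene and cell barcode, 1 sparse matrix per library, made with Cell Ranger 8.0.1 per the file headers. The build mm10 and Seurat 3 are named in the submitters' processing notes. The labels describe a microwell chip, and the sources used here do not give the chemistry or any filter before deposit.

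Barcodes with at least 500 UMIs, 200 genes and at most 25% mitochondrial UMIs were kept (5513 of 6573 in KO, 8800 of 8800 in WT). Scrublet, from scanpy 1.11.5, marked 0.0181% and 0%, so the 5% with the highest doublet scores were left out instead (276 and 440). The macrophage gate was 20 C1q UMIs per 10000. Marker gates of other cell types asked for 2 markers and 5 UMIs per 10000. Clustering used 2000 variable genes, 30 components, 15 neighbours and resolution 1, without the members and C1q genes, and gave 30 clusters. Counts were summed per library, and ratios are log2 after adding 5 CPM. Intervals are exact Poisson, conditional binomial for folds and Clopper-Pearson for shares, all 95%. Ratios and correlations were tested on simulated data. The members and gene lists were chosen with earlier results of these data known. Besides the members and gate genes, the text names the 10 most and 5 least correlated genes, genes at either end of the lists, and genes along the order of members detected that were chosen after their values were seen. Some genes that this rule covers are not reported here. Female-type cells had a UMI of Xist and none of 4 Y-linked genes, and male-type cells the reverse.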

Additional observations from a re-analysis of the deposited data

How the results depend on the processing

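No paired analysis was possible because each group is 1 library and the labels give no replicate numbers. Each value rests on 1 library per genotype, and intervals cover counting error only. The library labelled KO holds female-type and male-type cells that differ in Lyz2 level. All 10 members stayed higher in KO under every alternative except male-type cells alone, where the log2 ratios of Cbr2 (-0.39), Stab1 (-0.14), Mrc1 (-0.087) and Gas6 (-0.33) were below 0.

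The median log2 ratio of the members (0.88) was 0.053 with male-type cells alone, 1.20 with female-type KO cells against all WT cells, 0.96 without cells of another marker gate, 0.96 with a pseudocount of 1 CPM and 0.72 with 20, and 0.96 as a mean over cells. The 3 members at least 2-fold higher became 0 with male-type, 7 with female-type cells, 5 with a pseudocount of 1 and 1 with 20. Of all genes, 42 were at least 2-fold higher, 127 with a pseudocount of 1 and 16 with 20. The 13 at least 2-fold lower became 97 for male-type cells, 35 for female-type cells, 47 without cells of both types (an alternative chosen after seeing the data), 35 with a pseudocount of 1 and 3 with 20.

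The median pairwise r in KO (0.38) was 0.22 in male-type, 0.41 in female-type and 0.27 in thinned cells, and in WT (0.28) it was 0.22 by rank and 0.16 in thinned cells. The KO over WT ratio of the share of cells with at least 5 members (2.83, 2.52 to 3.18) was 1.10 for male-type cells, 3.71 for female-type cells, 4.94 at 1000 UMIs, 2.23 at 5000 and 1.84 unthinned. Of the 10 most alike genes, 6 were shared after thinning. C1q gates of 10 and 50 per 10000, no doublet removal, a stricter cell filter, other scalings and other UMI minimums moved none of these summary values beyond their intervals or 1.5 times. Cd163, with 82 and 21 UMIs in gated cells, has the widest fold interval of the members.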

Other observations

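Cells outside the scavenger-type cluster gave other combinations of the members. A cluster led by Serpinb2, Inhba and Cxcl3 held 220 cells in the library labelled KO and 23 in WT, of which 15.9% and 30.4% passed the C1q gate. It had 1534 CPM of Pf4 in KO and 1131 CPM in WT, with no Gas6 UMI in either, and 624 CPM of F13a1 in KO. In the library labelled KO it was the highest cluster for both Pf4 and F13a1.

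A cluster led by Siglech, Ly6d and Ccr9, genes of plasmacytoid dendritic cells, was the highest for Cd163 in both libraries, at 12.1 CPM in KO and 7.88 CPM in WT over 26 cells each. These levels are too low to read as expression. Gas6 was read at 377 CPM in KO and 49.2 CPM in WT in a cluster led by Col1a1, Slit3 and Col1a2 that held 4 cells in each library.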
